A study of Mus musculus with 135 samples.

Results

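*Nfkb1*, *Nfkb2*, *Rela*, *Nfkbia*, *Tnfaip3*, *Il6st*, *Il1r1*, *Tnfrsf1a*, *Tlr4* and *Myd88* encode receptors for inflammatory signals, an adaptor, subunits of the transcription factor NF-kB and its inhibitors. They were chosen by name, with earlier results of these data known. All 10 of the 10 names were present among the 15181 genes of the RefSeq read count table. Their level was read in single haematopoietic stem cells (HSCs) of a young mouse (2 to 3 months) and an old mouse (20 to 25 months). Both mice were C57BL/6 and carried the Vwf-eGFP reporter transgene, which marks HSCs that express the platelet gene *Vwf*. Carrying the transgene therefore does not distinguish the ages, but the paper reported a larger share of reporter-positive HSCs in old mice. The sort did not select on the reporter, and the share of reporter-positive cells among those used here was not tested. Cells were sorted from bone marrow as 7AAD-Lin-Sca-1+c-Kit+CD150+CD48-, captured singly on the Fluidigm C1 system and sequenced from amplified polyA RNA. The table holds 61 young and 74 old cells, of which 52 and 62 met the study's limits for cells and are described here. With 1 mouse per age, cells are not replicates of an age, so no test of age was possible and every difference below is between these 2 mice. Age, mouse and capture cannot be told apart.

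NF-kB is a family of dimeric transcription factors held inactive in the cytoplasm by inhibitor proteins such as IkBa. Signals from the interleukin 1, tumour necrosis factor and Toll-like receptors activate a kinase complex (IKK) that marks IkBa for destruction, which frees NF-kB to enter the nucleus, and among the genes NF-kB then switches on are its own inhibitors *Nfkbia* and *Tnfaip3*, so the pathway feeds back on itself. In the bone marrow the same signals are known to bring quiescent HSCs into cycle and to favour myeloid output.

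The promoters of *Nfkbia* and *Tnfaip3*, the feedback inhibitors, are shown because their differences between the ages had opposite signs, while both windows hold a match to the kB consensus, the motif to which NF-kB dimers bind. Each line gives the 250 bases before the RefSeq start of the gene (GRCm38.p6), 5' to 3' on the strand of the gene, which is the minus strand for both. Capitals mark matches to the kB consensus on either strand.
Nfkbia, chr12:55492648-55492897, minus strand: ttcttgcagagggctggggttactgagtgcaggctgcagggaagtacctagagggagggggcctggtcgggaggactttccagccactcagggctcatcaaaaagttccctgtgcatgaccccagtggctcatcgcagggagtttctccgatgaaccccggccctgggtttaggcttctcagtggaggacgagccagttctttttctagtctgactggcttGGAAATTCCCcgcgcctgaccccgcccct
Tnfaip3, chr10:19015411-19015660, minus strand: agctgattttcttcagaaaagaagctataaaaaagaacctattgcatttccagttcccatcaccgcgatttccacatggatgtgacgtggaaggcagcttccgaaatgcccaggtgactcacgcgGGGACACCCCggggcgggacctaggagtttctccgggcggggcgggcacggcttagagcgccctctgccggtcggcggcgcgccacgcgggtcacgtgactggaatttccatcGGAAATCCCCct

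In the *Nfkbia* window the match ran from base -29 to base -20 before the start. The *Tnfaip3* window shown, at the first of its 2 annotated starts, held 2 matches, from -125 to -116 and from -12 to -3, and the window at the other start held 0. Promoter windows of 300 bases, which add the first 50 bases of the transcript, were found for 8 of the 10 genes, and 4 of them (*Nfkb2*, *Nfkbia*, *Tnfaip3* and *Il1r1*) held at least 1 match. Of all genes with such a window, 9.55% held a match, and the share was 12.04% of those that are also in the count table. *Nfkb2*, with 3 annotated starts, held matches in each of its windows, and *Il1r1* in 1 of 2. *Rela*, *Il6st*, *Tnfrsf1a* and *Myd88* held none in these windows. *Nfkb1* and *Tlr4* have no entry. A match of letters is a description of the sequence and not a measured binding site.

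The genes lie on 9 chromosomes (GRCm38.p6, RefSeq gene bounds). *Nfkb2* (chr19:46300994-46312400, plus strand) and *Rela* (chr19:5637442-5648134, plus strand) share chromosome 19. *Nfkbia* lies at chr12:55489409-55492647 and *Tnfaip3* at chr10:19000910-19015410, both on the minus strand. *Il6st* lies at chr13:112464070-112506860, *Il1r1* at chr1:40222480-40316201, *Tnfrsf1a* at chr6:125349723-125362483 and *Tlr4* at chr4:66827551-66846581, all on the plus strand. *Nfkb1* lies at chr3:135584655-135691969 and *Myd88* at chr9:119335934-119340018, on the minus strand.

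The cells used had 273236 to 5688706 counted reads in young (median 2798990) and 276316 to 4086659 in old (median 2116024). All 9 HSC markers looked at (*Slamf1*, *Kit*, *Ly6a*, *Procr*, *Mecom*, *Hlf*, *Fgd5*, *Tie1*, *Ctnnal1*) were expressed, from *Fgd5* in 6 young and 14 old cells and *Slamf1*, which encodes the sort marker CD150, in 9 and 15, up to *Kit* in 49 and 61. *Ly6a* was higher in old cells by 1.55, and *Mecom* lower, with a difference of -0.998. The summed level of the list was 117 to 6155 CPM (counts scaled to 1000000 reads per cell) in young and 71.5 to 6937 CPM in old cells. *Xist* passed the expression limit in 50 young and 8 old cells, and a Y-linked gene in 2 and 58, so the mice differ in sex-linked transcripts, and sex, which the labels do not give, cannot be told apart from age either.

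Levels are given as log2(CPM + 1), and a cell was counted as expressing a gene above 2 on this scale. Each of the 10 genes passed this limit in some cells and not in others, and 7 of the 10 had a higher mean level in old cells. A cell below the limit is not shown to lack the transcript: *Nfkbia* had a read in 57 old cells and passed the limit in 46. Of all 15014 genes with a count, 46.2% were higher in old cells by any amount. A difference of 1 or more between the mean levels, taken as old minus young, was reached upwards by 5 genes, *Nfkbia*, *Tlr4*, *Tnfrsf1a*, *Il6st* and *Rela*, against 3.91% of all genes. Downwards it was reached by none, against 4.49% of all genes. With genes expressed in under 10% of the cells set aside, 9374 genes remained and their shares were 6.24% upwards and 6.98% downwards. The median difference of the 10 genes was 0.73, beside -0.02 over all genes. Because the 10 genes were chosen with earlier results of these data known, these contrasts are a description and no separate evidence. The number past 1 depends on values that lie just over that limit: it was 3 with cells of at least 1000000 reads or with poscounts scaling, and 2 after thinning every cell to 250000 reads. For each of the 10 genes the exact 95% intervals of the share of expressing cells overlapped between the ages. All intervals cover counting error only.

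**Figure D1:**
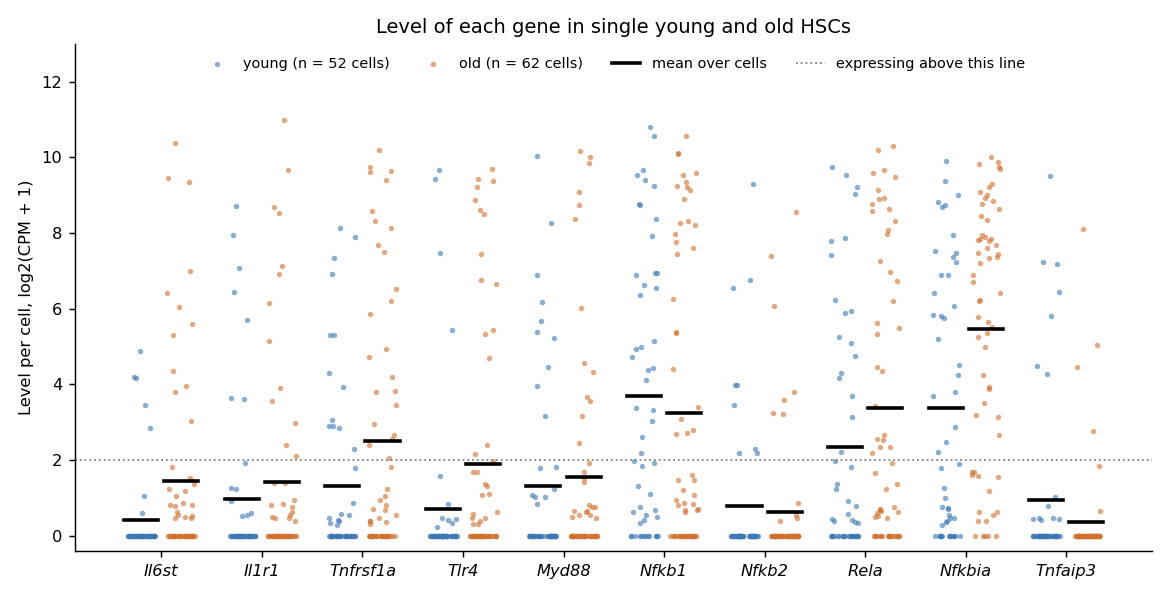
Level of each gene as log2(CPM + 1) on the vertical axis, with 1 point per cell for 52 young (blue) and 62 old (orange) HSCs, black bars for the mean over cells and a dotted line at 2, above which a cell counted as expressing. The points of the ages overlap for every gene, the medians lie at 0 or 0.61 for 7 of the 10, and the bar of *Nfkbia* moves from 3.38 to 5.46.

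Each of the 4 receptor genes was expressed in at most 25.0% of the young cells. *Il6st* encodes gp130, the signalling chain shared by the receptors for interleukin 6, interleukin 11, leukaemia inhibitory factor and oncostatin M. Its level ran from 0 through a median of 0 to 4.89 in young cells and from 0 through a median of 0 to 10.37 in old cells. Expressing cells were 5 of 52 (9.62%, interval 3.20 to 21.03) and 12 of 62 (19.4%, 10.4 to 31.4). The ages overlap at 0, where most cells lie, and the cells above 4.89 were all old. The mean level was 0.41 in young and 1.44 in old cells, a difference of 1.03. Summed over cells, 234 counts (205 to 266) were assigned to *Il6st* in young and 5684 (5537 to 5834) in old, and 1 old cell, H7, held 55.4% of the latter. On summed and scaled counts the log2 ratio was 4.81, and without the cell with most reads in each age it was 4.71, so the wide gap does not rest on that cell alone.

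*Il1r1*, the signalling receptor for interleukin 1, ranged from 0 to 8.73 in young and from 0 to 10.98 in old cells, with a median of 0 in both. It was expressed in 7 of 52 (13.5%, 5.59 to 25.8) and 13 of 62 cells (20.97%, 11.7 to 33.2). The ages overlap over nearly the whole range. The mean level was 0.96 in young and 1.41 in old cells, a difference of 0.44. H11, an old cell, held 70.2% of the old counts, and leaving out the top cell of each age took the log2 ratio of summed counts from 1.42 to 0.33. The difference was 0.03 in cells with at least 1000000 reads and -0.01 in cells expressing no cycling gene.

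*Tnfrsf1a* encodes the main tumour necrosis factor receptor, which carries a death domain. Its level ran from 0 to 8.15 in young cells, with a median of 0, and from 0 to 10.20 in old cells, with a median of 0.61. The upper quartile was 1.91 in young and 4.10 in old cells, so the old cells reached further up while both ages shared the low end. Expressing cells were 13 of 52 (25.0%, 14.03 to 38.9) and 24 of 62 (38.7%, 26.6 to 51.9), and those expressing it had a mean level of 4.86 in young and 6.04 in old. Both more cells and higher levels per cell therefore went into the difference of 1.17, from a mean of 1.32 to 2.50. This difference stayed between 1.03 and 2.65 in all 10 alternatives tried, among them the ratio of summed counts (2.44).

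*Tlr4*, the receptor for bacterial lipopolysaccharide, was expressed in 4 of 52 young (7.69%, 2.14 to 18.5) and 15 of 62 old cells (24.2%, 14.2 to 36.7). The level ran from 0 to 9.67 in young and from 0 to 9.69 in old cells, with a median of 0 in both. The highest cells were thus alike, and the difference in mean level (0.70 against 1.90, difference 1.20) came with more expressing cells, since among these the mean level was 7.999 in young and 6.97 in old. Over the alternatives the difference ran from 0.99 to 1.99. *Ly96*, which encodes MD-2, the protein that binds lipopolysaccharide together with this receptor, was expressed in 6 young and 5 old cells. Of the *Tlr4* cells, 1 of 15 old and 0 of 4 young ones were among them, beside 8.06% of all old and 11.5% of all young cells.

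*Myd88* encodes the adaptor through which the interleukin 1 receptor and most Toll-like receptors signal. It ranged from 0 to 10.05 in young and from 0 to 10.16 in old cells, with a median of 0 in both, and was expressed in 10 of 52 (19.2%, 9.63 to 32.5) and 13 of 62 cells (20.97%, 11.7 to 33.2). These shares are alike and the cells overlap over the full range. The mean level was 1.31 and 1.56, a difference of 0.25. On summed counts the log2 ratio was 1.42, with E5, an old cell, holding 29.3% of the old counts. Of the *Tlr4* cells, 2 of 4 young and 1 of 15 old ones had *Myd88*, and of the *Il1r1* cells 1 of 7 young and 1 of 13 old ones. That is 50%, 6.67%, 14.3% and 7.69%, beside its share of 19.2% of all young and 20.97% of all old cells. With so few cells these shares do not show whether the genes go together. The exons of *Myd88* share 290 bases with *Acaa1a* on the other strand, and whether the counting used strand is not stated, so some reads may belong to that gene.

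**Figure D2:**
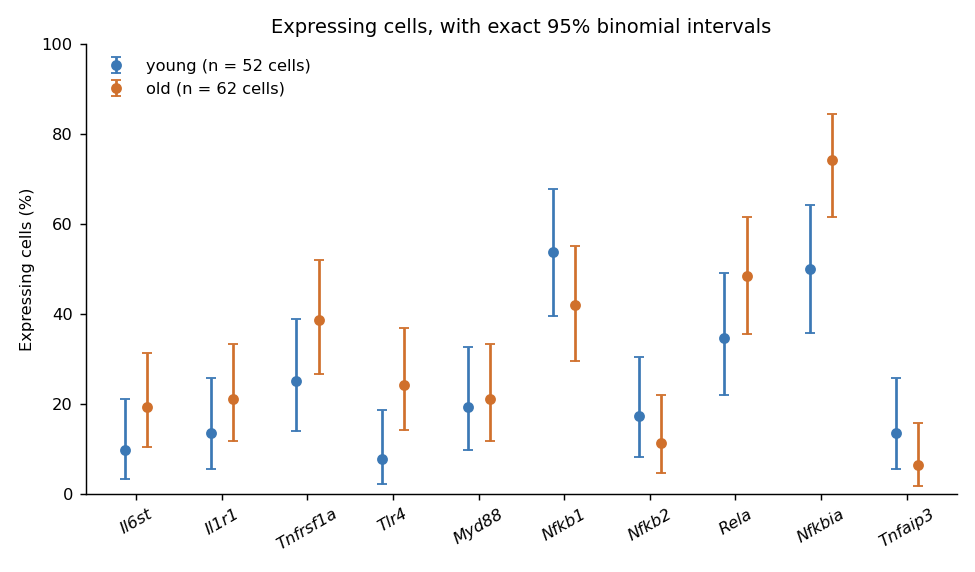
Percentage of cells expressing each gene (vertical axis) in young (blue, n = 52) and old (orange, n = 62) HSCs, with exact 95% binomial intervals as bars. The share of old cells is higher for *Il6st*, *Il1r1*, *Tnfrsf1a*, *Tlr4*, *Myd88*, *Rela* and *Nfkbia* and lower for *Nfkb1*, *Nfkb2* and *Tnfaip3*, and the intervals overlap in each pair, for *Nfkbia* only between 61.5% and 64.2%.

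Among the subunits of NF-kB, *Nfkb1*, whose product p105 is processed to the DNA-binding subunit p50, was the most widely expressed in young cells. Its level ran from 0 through a median of 2.82 to 10.79 in young and from 0 through a median of 1.02 to 10.58 in old cells, and it was expressed in 28 of 52 (53.8%, 39.5 to 67.8) and 26 of 62 cells (41.9%, 29.5 to 55.2). Fewer old cells carried it, and those that did had a higher mean level (7.21 against 6.45). The mean over all cells was 3.70 in young and 3.23 in old, a difference of -0.47, whereas the log2 ratio of summed counts was 0.27. The direction therefore depends on the measure. The mean of CPM over cells, which weights cells equally without logs, was 162 in young and 163 in old.

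*Nfkb2*, the precursor of p52 in the alternative NF-kB pathway, was expressed in 9 of 52 young (17.3%, 8.23 to 30.3) and 7 of 62 old cells (11.3%, 4.66 to 21.9). The level ran from 0 to 9.30 in young and from 0 to 8.56 in old cells, with a median of 0 and an upper quartile of 0 in both. No read of it was counted in 43 of 52 young and 51 of 62 old cells. The difference in mean level was -0.17 (0.78 against 0.62), and it was 0.09 in cells expressing no cycling gene. Its exons share 830 bases with genes of the other strand, *Psd* and a long non-coding RNA.

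*Rela* encodes p65, the subunit that carries the transactivation domain of the classical dimer. It ran from 0 through a median of 0.43 to 9.76 in young cells and from 0 through a median of 1.79 to 10.30 in old cells. Expressing cells were 18 of 52 (34.6%, 21.97 to 49.1) and 30 of 62 (48.4%, 35.5 to 61.4), with overlap of the cells across the range. The mean level was 2.35 in young and 3.37 in old, a difference of 1.02. With only the 47 young and 51 old cells of at least 1000000 reads the difference was 0.44, so its place above 1 rests in part on the more shallowly read cells.

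The inhibitors differed in opposite directions. *Nfkbia* encodes IkBa, which holds p65 and p50 in the cytoplasm. Its level ran from 0 through a median of 2.05 to 9.91 in young and from 0 through a median of 6.32 to 10.02 in old cells. Although the ranges coincide, the lower quartile of the old cells (1.94) lay close to the young median. It was expressed in 26 of 52 young (50%, 35.8 to 64.2) and 46 of 62 old cells (74.2%, 61.5 to 84.5), and at least 1 read was counted in 39 and 57 cells. The mean level was 3.38 in young and 5.46 in old, a difference of 2.09, which was the largest of the 10 genes and number 79 of 15014 when genes were ordered from the highest difference. In expressing cells the mean level was 6.34 in young and 7.10 in old. Each of the 10 alternatives kept the difference above 1, from 1.17 on summed counts to 2.83 in cells expressing no cycling gene. B7, a young cell, held 36.6% of the young counts, and without the top cell of each age the log2 ratio of summed counts was 1.64.

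*Tnfaip3* encodes A20, an enzyme that edits ubiquitin chains and switches off signalling from the tumour necrosis factor and Toll-like receptors. It was expressed in 7 of 52 young (13.5%, 5.59 to 25.8) and 4 of 62 old cells (6.45%, 1.79 to 15.7). Its level ran from 0 to 9.51 in young and from 0 to 8.10 in old cells, with a median of 0 in both. The mean level was 0.94 in young and 0.37 in old, a difference of -0.57. All young cells together held 3927 counts (3805 to 4052), the old cells 542 (497 to 590), and 1 cell in each age, F9 in young and C12 in old, held 72.3% and 74.5% of them. The log2 ratio of summed counts was -2.65, and -2.79 without these cells. In cells expressing no cycling gene the difference in mean level was -0.11. Of the 7 young *Tnfaip3* cells 5 expressed a cycling gene, as did 27 of all 52 young cells.

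Per kilobase of exon, which allows for gene length, the mean level was highest for *Nfkbia* in both ages, at 60.04 CPM per kb in young and 127 in old cells. The length was that of all GENCODE exons of a gene joined, while reads were counted per RefSeq gene, so the order depends in part on the annotation. In young cells *Rela* followed with 23.3 CPM per kb, then *Nfkb1* with 13.4, *Myd88* with 12.96, *Tnfrsf1a* with 7.03, *Tlr4* with 5.96, *Nfkb2* with 3.70, *Tnfaip3* with 3.21, *Il1r1* with 2.93 and *Il6st* with 0.140. The order in old cells was *Rela* with 47.3 CPM per kb, *Tnfrsf1a* with 37.5, *Myd88* with 28.5, *Nfkb1* with 13.5, *Tlr4* with 13.1, *Il1r1* with 10.2, *Il6st* with 4.52, *Nfkb2* with 2.30 and *Tnfaip3* with 0.749. *Tnfrsf1a*, *Il1r1* and *Il6st* thus stood higher in the old order, *Nfkb1* lower, and *Tlr4* at the same place. The coefficient of variation of CPM between cells was lowest for *Nfkbia* in both ages, at 2.01 in young and 1.33 in old, and reached 5.24 (*Nfkb2*, young) and 6.46 (*Tnfaip3*, old), so neighbours in either order do not differ beyond the spread between cells.

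Within a cell the genes were combined in small numbers. A young cell expressed a median of 2 of the 10 genes (0 to 6) and an old cell a median of 3 (1 to 6). None of the 4 receptor genes was detected in 31 of 52 young cells (59.6%, 45.1 to 72.99) and in 19 of 62 old cells (30.6%, 19.6 to 43.7). This sum over the receptors was formed after their single values were seen, all 4 of which were higher in old cells, so it adds no separate evidence. At least 2 of the 4 were detected in 8 young and 17 old cells. *Rela* and *Nfkbia* were expressed together in 9 young and 23 old cells, which is 50% of the young and 76.7% of the old *Rela* cells, close to the share of *Nfkbia* among all young (50%) and all old cells (74.2%). *Nfkb1* and *Rela*, the subunits of the classical dimer, shared 7 young and 13 old cells. *Nfkbia* was found in 3 of 7 young and in all 4 old *Tnfaip3* cells.

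**Figure D3:**
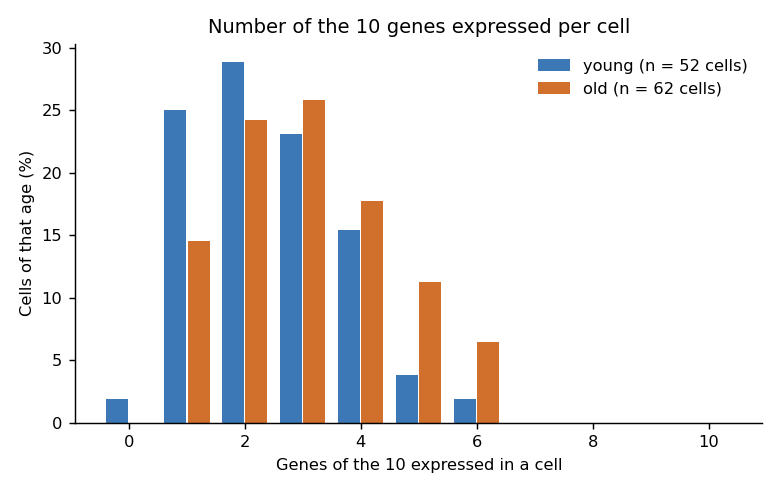
Number of the 10 genes expressed in a cell (horizontal axis) against the percentage of cells of that age (vertical axis), for 52 young (blue) and 62 old (orange) HSCs. The most frequent number is 2 in young cells (15 cells) and 3 in old cells (16 cells), and no cell expresses more than 6.

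Between cells of the same age the 10 genes varied largely apart. Of the 45 pairs, Pearson's r of log2(CPM + 1) ran from -0.24 to 0.35 in young cells (n = 52) and from -0.25 to 0.27 in old cells (n = 62), with 43 and 45 pairs under 0.3 in size. Spearman's rho, in which the many cells at 0 are tied, ran from -0.27 to 0.48 (*Tnfaip3* with *Tlr4*) in young and from -0.21 to 0.29 in old cells, with 41 and 45 pairs under 0.3. In sparse counts such values are no sign of a relation, and the cells of an age share an animal, a run and a range of depths. The pair with the highest r in young cells, *Tlr4* with *Myd88* (0.35), had -0.13 in old cells, and *Tnfaip3* with *Tlr4* had a rho of -0.02 there. With the number of reads of a cell, r of the 10 genes ran from -0.25 to 0.12 in young and from -0.38 (*Il1r1*) to 0.18 in old cells. Likeness was taken for the 4 genes that at least 20% of both young and old cells expressed: by the mean r of the 2 ages, the nearest of 9373 genes were *Commd8*, *Nynrin* and *Gnptg* for *Nfkb1*, *Mcm10*, *Malsu1* and *Chek1* for *Rela*, *Incenp*, *Birc5* and *Kif11* for *Nfkbia*, and *Neurl1b*, *Dtx3* and *H13* for *Tnfrsf1a*. Their mean r lay between 0.33 and 0.40, the top of a range whose median was between -0.01 and 0.03. *Birc5* passed the expression limit in 50 young and 59 old cells and *Kif11* in 51 and 58, and the origin of those reads was not tested.

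Of the cells, 27 young and 13 old expressed at least 1 of the cycling genes *Ccna2*, *Ccnb1*, *Cdk1* and *Cdc25c*. All 4 were lower by 1 or more in old cells (median -1.55), against 4.49% of all genes. The paper had named these 4 genes from the same cells as more often expressed in young HSCs. Their fall was thus known beforehand and is no separate evidence. *Nfkbia* had a mean level of 4.22 in the young cells with such a gene (17 of 27 expressing) and 2.46 in those without (9 of 25), and 6.11 (11 of 13) and 5.29 (35 of 49) in the old cells, so it was higher in old cells in either class.

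The rest of the pathway showed few differences of this size. Of 7 other Rel and IkB proteins, 4 were higher and 3 lower in old cells, with a median difference of 0.02 and 1 past 1. That gene was *Nfkbiz*, which encodes a nuclear IkB protein that modifies the targets NF-kB can reach. Its mean level was 1.97 in young and 5.005 in old cells, a difference of 3.03, with 16 of 52 and 38 of 62 cells expressing. *Nfkbia* and *Nfkbiz* were expressed together in 9 young and 30 old cells, which is 34.6% of the young and 65.2% of the old *Nfkbia* cells. The share of *Nfkbiz* was close to this among all young (30.8%) and all old cells (61.3%). *Nfkbid* had a difference of 0.02, *Rel* of -0.40 and *Nfkbib* of -0.13.

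Of 16 genes of the IKK complex and the kinases before it, 6 were higher and 10 lower, with a median of -0.08. *Irak4*, the kinase recruited by MyD88, had the highest difference at 1.72 (20 young and 41 old cells expressing), followed by *Tbk1* at 0.77. *Map3k7*, which encodes the IKK-activating kinase TAK1, and *Ikbkb*, the catalytic subunit of IKK, had -0.96 and -0.81. The 19 adaptors and ubiquitin ligases had a median of -0.07, with 6 higher and 13 lower. *Tollip*, a negative adaptor of Toll-like receptor signalling, reached 1.23 and *Traf3* 0.25, while *Peli1* had -0.45 and *Traf6* -0.40. Receptor-proximal and kinase genes were thus divided in both lists, and no gene of either was lower by 1 or more.

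Other brakes on the pathway (11 genes) had 7 higher and 4 lower members and a median of 0.14. *Zfp36*, whose product destabilises inflammatory mRNAs, was detected in 48 and 61 cells with a mean level of 7.32 in young and 8.87 in old, a difference of 1.55. *Otulin* had a difference of 0.65, *Sigirr* of -0.58 and *Itch* of -0.51. Among 20 of 26 listed NF-kB target genes in the table, 13 were higher and 7 lower, with a median of 0.15. A rise of 1 or more was reached by 3 of the 20, against 3.91% of all genes. Counting only the 13 targets expressed in at least 10% of the cells, the median was 0.51, beside -0.07 over all such genes. *Ier3*, an early response gene, was the highest at 2.93 (12 young and 41 old cells), followed by *Irf1*, an interferon regulatory factor, at 1.60 (17 and 41 cells). *Sod2*, the mitochondrial superoxide dismutase and a classical target, had -0.94, and *Il15* -0.40, so the targets did not share 1 direction. The paper had named *Ier3* from the same cells as more often expressed in old HSCs. Its rise was thus known beforehand and is no separate evidence.

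Other inflammatory receptors (18 of 24 in the table) had a median of -0.04 with 8 higher and 10 lower, none past 1 either way. *Il18rap* had 0.54, *Ltbr* 0.36, *Il18r1* -0.79 and *Lifr* -0.32. *Il6ra*, the chain that gives *Il6st* its response to interleukin 6, was expressed in 1 young and 1 old cell, none of them an *Il6st* cell. *Lifr*, another partner of *Il6st*, passed the expression limit in all 52 young cells and in 55 of the 62 old ones. Its levels lay within a narrow and low range, 2.11 to 6.00 in young, and the origin of these reads was not tested. *Il1rap*, the accessory chain of the interleukin 1 receptor, overlapped with 0 of the 7 young and 2 of the 13 old *Il1r1* cells. Among all cells its share was 15.4% in young and 16.1% in old, and so few cells do not show whether the genes go together. The 8 JAK and STAT partners of *Il6st* had 7 higher and 1 lower, none past 1, with a median of 0.21. *Stat3*, the main transcription factor below gp130, had 0.85, its feedback inhibitor *Socs3* 0.56 and the kinase gene *Jak1* -0.47.

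Of the inflammatory ligands, 8 of 12 were in the table, with 1 higher and 7 lower, none past 1, and a median of -0.12. *Hmgb1*, a chromatin protein that acts as an alarm signal outside the cell, was expressed in every cell and had -0.41, as did *Il11*. The level of *Il11* stayed between 3.01 and 5.96 in young cells, and the origin of its reads was not tested. *Il1a* and *Tnf* were expressed in no cell. Counting error alone then allows shares of up to 5.77% of young and 4.84% of old cells with a limit of 3 cells, and of up to 6.85% and 5.78% by the exact interval. Both genes had reads below the expression limit, 2 of *Il1a* in young and 2 of *Tnf* in old cells.

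**Figure D4:**
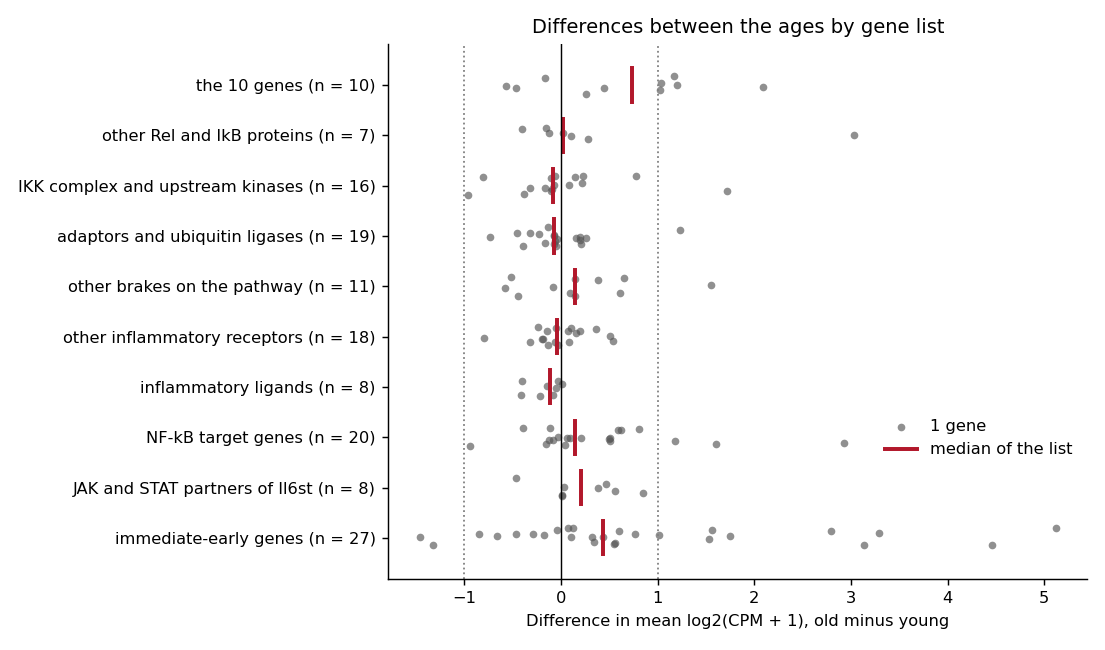
Old minus young difference of the mean level, log2(CPM + 1), for each gene (grey points) of the 10 genes and of 9 lists, with red bars for the median of each list, a solid line at 0 and dotted lines at -1 and 1. The bar of the 10 genes lies at 0.73 and that of the immediate-early genes at 0.43, while the other bars lie between -0.12 and 0.21.

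Immediate-early genes, which cells switch on within minutes of a stimulus, were higher in the old cells as well. Of the 27 genes present, 19 were higher and 8 lower, with a median of 0.43. A difference of 1 or more was reached upwards by 9 and downwards by 2, against 3.91% and 4.49% of all genes. *Btg2* had 5.12 and *Egr1* 4.46, against -1.46 for *Klf4* and -1.32 for *Fosb*. The paper had named *Egr1*, *Egr3*, *Junb* and *Ier3* from the same cells as more often expressed in old HSCs. The rise of this list was thus known in part beforehand, and its contrast with all genes is no separate evidence. *Nfkbia*, *Nfkbiz*, *Ier3* and *Zfp36* are known to be early response genes too. The summed level of the list was 577 to 12599 CPM in young cells (median 4667) and 703 to 22870 CPM in old cells (median 10333). Between cells of an age, r of the 10 genes with the mean level of this list ran from -0.29 to 0.21 in young and from -0.17 (*Nfkbia*) to 0.20 in old. The part of the immediate-early genes in the difference between the ages was not tested.

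Markers of mature cells, several of which use these receptors, were uneven, with a few widely expressed and most found in few cells. Of the macrophage and monocyte markers 9 of the 12 listed were present, and their summed level was 0.511 to 1813 CPM in young and 1.52 to 1566 CPM in old cells, mostly from *Lyz2* (43 young and 43 old cells). *C1qa* and *C1qc* were expressed in no cell, and *Itgam* and *Cd68* in at most 8 of an age. Granulocyte markers (7 of 9) gave sums from 14.4 up to 825 CPM in young and from 16.6 up to 1607 CPM in old cells, with a median of 96.3 in young and 262 in old. *Prtn3* had a mean level of 4.62 in young (38 cells) and 7.11 in old (59 cells), a difference of 2.49. *Csf3r* passed the expression limit in every cell (difference 0.25), within 3.71 to 8.12 in young cells, and the origin of its reads was not tested. *Elane*, *Mpo*, *S100a8* and *S100a9* were expressed in at most 4 cells of an age. B cell markers (2 of 7) reached 1117 CPM in young and 800 CPM in old, T and NK cell markers (3 of 7) 356 and 991, megakaryocyte and platelet markers (6 of 7) 1116 and 3138, erythroid markers (3 of 6) 1459 and 15.3, and endothelial and stromal markers (5 of 6) 1245 and 1145 CPM. Within these lists *Klrb1c* was expressed in 0 young and 9 old cells (difference 0.94), *Gp9* in 14 and 24 (0.80) and *Emcn* in 20 and 7 (-1.59). *Lepr* passed the expression limit in every cell (0.08), within 4.15 to 7.06 in young cells, and the origin of its reads was not tested. The part of these transcripts in the differences of the 10 genes was not tested.

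**Figure D5:**
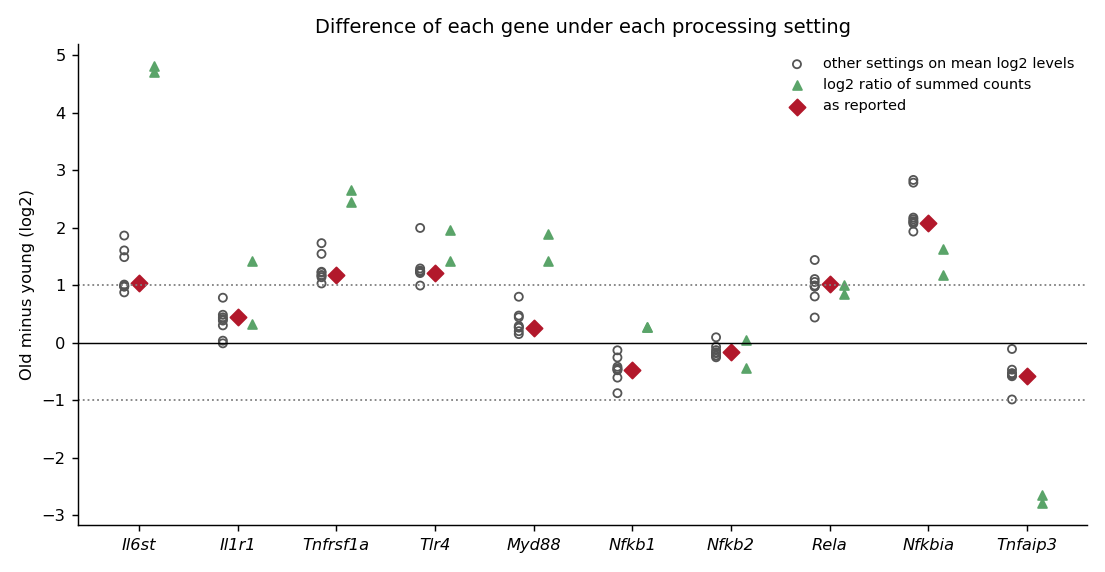
Difference between the ages (old minus young, log2) of each gene as reported (red diamonds), under the other settings on mean log2 levels (open circles) and as log2 ratio of summed counts with and without the top cell (green triangles), with dotted lines at -1 and 1. *Nfkbia* and *Tnfrsf1a* stay above 1 in every setting, *Tnfaip3* stays below 0, and *Nfkb1* crosses 0 on summed counts.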

How the data were processed

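Single-cell RNA sequencing libraries were made by the authors with the C1 system, SMARTer amplification and Nextera XT. Per the submitters' processing notes, reads were aligned with TopHat2 2.0.10 to mm10, and the authors deposited raw read counts per RefSeq gene for 135 cells; whether counting used strand is not given in the sources used here. 21 entries of the table join several genes, and no column lacked a sample. Cells were kept under the study's limits of at least 500000 mapped reads, at most 10% mitochondrial reads and at least 3000 genes, which left 114. No doublet caller was run, since capture sites were imaged by the authors.

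Counts were scaled to CPM over the total of each cell, a pseudocount of 1 CPM was added, and levels were averaged over cells on the log2 scale, which understates differences of low genes. Shares of expressing cells have exact Clopper-Pearson 95% intervals and summed counts exact Poisson 95% intervals. The difference is old minus young. No test was made, because each age is 1 mouse. The steps were tested on simulated data. The members and lists were chosen with earlier results of these data known. Named were all members, the 2 highest and 2 lowest differences of each list (genes on in under 10% of the cells left out), and the 3 genes most like each widely expressed member; *Nfkbiz*, *Lifr*, *Il6ra*, *Il1rap* and *Ly96* as partners within a cell were added after their values were seen. Exon lengths and overlaps come from GENCODE vM21 annotation, and gene bounds and promoters from RefSeq GRCm38.p6. Alternatives changed cells, pseudocount, scaling (TMMwsp of edgeR 4.0.16, poscounts of DESeq2 1.42.0), depth and summing. Python 3.11.15, numpy 2.4.6, pandas 2.3.3, scipy 1.17.1 and R 4.3.3 were used. Transplantation, single-cell PCR and other experiments of the study were not analysed here. 1 further HSC marker was not used here.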

Additional observations from a re-analysis of the deposited data

How the results depend on the processing

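Under 9 other ways of processing and a further 1 chosen after seeing the data (mean levels without the cell with most reads of a gene in each age), no difference of 1 or more changed sign. *Nfkbia* stayed between 1.17 and 2.83, *Tnfrsf1a* between 1.03 and 2.65, *Tlr4* between 0.99 and 1.99, *Il6st* between 0.87 and 4.81, and *Rela* between 0.44 and 1.44. Smaller differences did cross 0: *Nfkb1* ran from -0.88 to 0.27, *Nfkb2* from -0.44 to 0.09 and *Il1r1* from -0.01 to 1.42. The number of the 10 genes higher by 1 or more was 3 in cells with at least 1000000 reads, 3 with poscounts factors and 2 after thinning to 250000 reads, instead of 5. The number lower by 1 or more was 1 (*Tnfaip3*) on summed counts, with or without the top cell, instead of 0. On summed counts the median of the other Rel and IkB proteins was 1.03 and that of the ligands -1.22. Without the top cell of each age, the medians were 1.32 for the 10 genes, 1.27 for the other Rel and IkB proteins, 0.87 for the target genes and 1.03 for the immediate-early genes. The causes of these shifts were not tested. Shares of expressing cells kept within their intervals in 64 of 80 values, and the 16 others all came from counting a cell with at least 1 read as expressing. No paired analysis was possible because cells of the ages share only a number and no test was made.

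Each age is 1 mouse, so no value here measures the spread between animals. Genes expressed in few cells rest on few reads in single cells, and with 52 and 62 cells the intervals of the shares are wide.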
